A study of Rattus norvegicus with 9 samples.

Results

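Nuclear arginine tRNAs were the source of 9 distinct tRNA-derived fragments (tRFs) in a table of 192 distinct tRFs from rat pancreatic islets. Members were the rows whose host tRNA starts with tRNA-Arg-, each sequence being taken once. They filled 10 rows, because one fragment was listed 2 times under the same host name. A mitochondrial arginine fragment, 1 tRF of mtRNA-Arg-TCG, was not included. The islets came from 22-day-old male Sprague Dawley rats whose mothers ate a low-protein diet (LP, 5.3% protein, n = 4) or a chow diet (CD, 16.8% protein, n = 5) during gestation and lactation, a model of susceptibility to diabetes, and the study asked which tRFs differ between them. Every tRF of the table, arginine or not, had been picked by the authors because it differed between these same 9 rats. The groups therefore had to differ for each member, and the values below describe sizes, ranges and make-up and are not independent evidence of a change. Islets are mixtures of endocrine and other cells and only tRFs were listed, so the tissue label could not be checked against marker genes, and fewer cells of a type cannot be told apart from less RNA per cell. Littermates are not identified in the labels, so the errors cover the spread between these samples.

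A tRNA carries an amino acid to the ribosome and reads a codon of the messenger RNA through its anticodon. Arginine, an amino acid that also stimulates insulin release from β-cells, is read by several nuclear tRNAs. In the ACG tRNA the first anticodon base is changed to inosine, so that it reads CGU, CGC and CGA. CCG reads CGG, TCG reads CGA, CCT reads AGG and TCT reads AGA. Mature tRNAs end in CCA, the site where the amino acid is attached. Enzymes such as angiogenin cut tRNAs in the anticodon loop, and short fragments that end in CCA are made by cuts nearer the 3′ end. All 5 anticodons were represented, with 3 tRFs each for CCT and TCT and 1 each for ACG, CCG and TCG. In the text tRNA-Arg-CCG 20 is shortened to CCG 20, the anticodon followed by the number of nucleotides (nt), and a letter tells apart fragments that agree in both.

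The fragments fell into groups by the stretches they shared. In ACG 24 and TCT 20a, capitals mark a run of 13 bases that was common to both and was held by no tRF of another host.
ACG 24: gggccaGTGGCGCAATGGAtaacg
TCT 20a: gtctctGTGGCGCAATGGAc

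The second group held the 3 CCT fragments and TCT 30. Capitals mark a run of 18 bases that these 4 tRFs shared and no other tRF of the table held. CCT 33 lay whole within CCT 34 and within CCT 40, CCT 34 being 1 base longer at its 3′ end. None of the CCT fragments had a complete CCA end, and whether their last bases belong to an incomplete one was not tested, since the sequence of the whole tRNA was not used here.
CCT 33: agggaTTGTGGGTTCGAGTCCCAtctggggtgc
CCT 34: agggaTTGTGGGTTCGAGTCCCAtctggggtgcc
CCT 40: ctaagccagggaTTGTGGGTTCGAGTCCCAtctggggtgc
TCT 30: TTGTGGGTTCGAGTCCCAccagagtcgcca

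The third group was CCG 20 and TCG 40, in which capitals mark 13 bases held by no other tRF of the table. The first 2 letters of CCG 20, like those of CCT 40 above, match the last 2 of its anticodon, though its position in the tRNA was not computed.
CCG 20: cgGATCAGAAGATTGggggt
TCG 40: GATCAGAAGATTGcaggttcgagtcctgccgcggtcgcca

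The last fragment is shown for its 3′ end. Capitals mark the final 9 bases, which TCT 20b and TCT 30 had in common. The first bases of TCT 20b, gagtccc, also occur in TCT 30, and most of the few bases between these stretches differed. The table's single host name TCT thus covers tRNAs of different, though similar, sequence.
TCT 20b: gagtcccggcgGAGTCGCCA

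The run that CCT 33 and TCG 40 shared, GGTTCGAGTCC, searched on the strand of the fragment, was present in 5 of the 9 arginine tRFs (CCT 33, CCT 34, CCT 40, TCT 30 and TCG 40) and in 5 of all 192 (2.60%), so that no tRF of another host held it. It has the form of the B box, an internal promoter element of tRNA genes. Only this exact run was searched, so other versions of the B box in other hosts were not counted. The run lies in the T loop, around an adenosine that often carries the N1-methyl group that the pretreatment of this RNA removes. The arginine tRFs were 20 to 40 nt long with a median of 30 nt, which was also the median of the table, whose range was 16 to 55 nt. None exceeded 40 nt, where 35 tRFs of the table lay. TCT 20b, TCT 30 and TCG 40 ended in CCA (3 of 9), against 79 of 192 (41.1%) in the table. No tRF of another host contained an arginine tRF, lay within one or shared its last 16 bases.

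In LP islets 2 arginine tRFs were higher, TCT 20b and TCG 40, and the other 7 were lower. With edgeR's quasi-likelihood test, fitted to all tRFs of the table, 6 arginine tRFs passed the filter on low counts and all 6 passed 2-fold and an adjusted p of 0.05, 2 upward and 4 downward. Of all 181 tRFs tested, 41.4% were called higher and 56.4% lower, which follows from how the table was made. After scaling, TCG 40 reached the filter's minimum only in LP rats and TCT 30 only in CD rats, each the group where it was high. TCT 20b reached it in every LP rat but, among CD rats, only in CD 4 and CD 5. It too passed only because of the group where it was high. ACG 24, CCG 20 and TCT 20a did not pass the filter and are given by their counts and by a fit without it. In that fit the median log2 fold change was -2.14 over the 9 arginine tRFs and -1.56 over the 192 tRFs. The levels of the LP and CD rats did not overlap for 2 higher and 5 lower arginine tRFs, where 28.6% and 47.9% of the table's tRFs were separated in these directions.

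**Figure D1:**
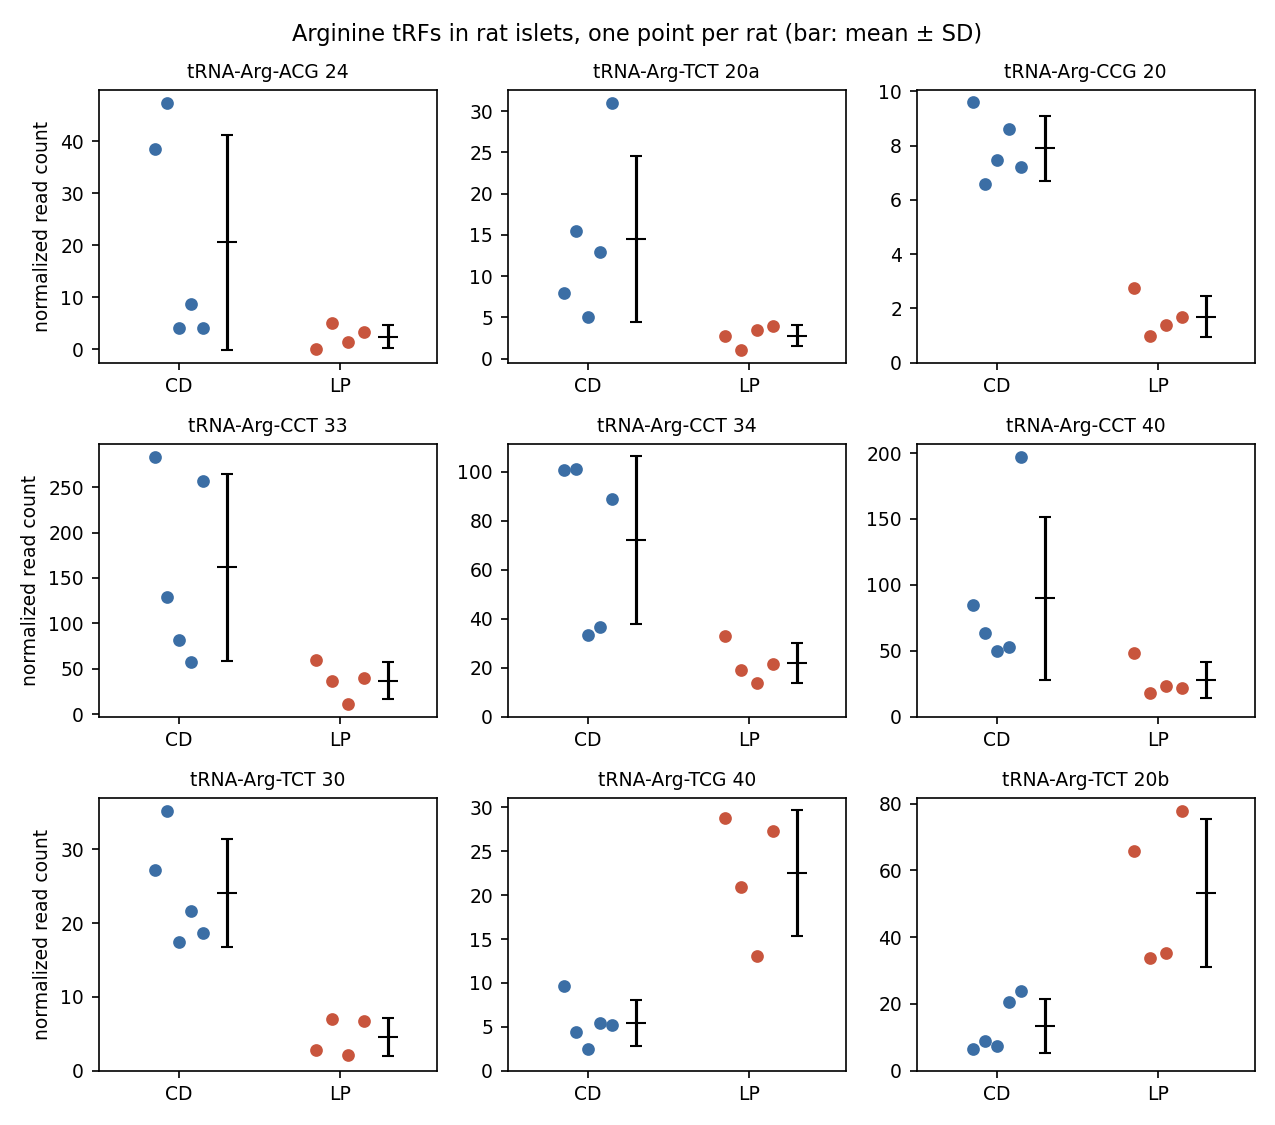
Normalized read count (counts divided by the authors' size factors, vertical axes from 0, a scale for each panel) of the 9 arginine tRFs, with a point per rat for CD (blue, n = 5) and LP (red, n = 4) and black bars for mean ± SD. TCG 40 and TCT 20b are higher in every LP rat than in any CD rat, and CCT 33 and ACG 24 are the panels where the groups overlap.

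In CD the fragments of tRNA-Arg-CCT were the most abundant arginine tRFs, whereas in LP the mean of TCT 20b was above that of each of them. CCT 33 had raw counts of 177, 117, 99, 53 and 248 in CD 1 to CD 5 and of 44, 37, 16 and 71 in LP 1 to LP 4. After division by the size factor of each library, which gives the normalized read count, CD rats averaged 162 ± 102 (SD, n = 5) and LP rats 36.9 ± 20.2 (SD, n = 4). CD 1 and CD 5 were the highest, and the groups overlapped, as LP 1 reached 60.3 while CD 4 was at 57.2. The log2 fold change was -2.14 ± 0.59 (SE), with an edgeR adjusted p of 0.00488.

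CCT 34, the form with 1 more base at its 3′ end, had raw counts of 63, 92, 40, 34 and 86 in CD and of 24, 19, 20 and 39 in LP. Normalized read counts averaged 72.2 ± 34.4 (SD, n = 5) and 21.8 ± 8.08 (SD, n = 4), and the groups were separated by a narrow gap between 33.3 in CD 3 and 32.9 in LP 1. The longest form, CCT 40, had raw counts of 53, 58, 60, 49 and 191 in CD and of 35, 18, 34 and 39 in LP. CD 5 stood highest here, with a normalized read count of 197, while the remaining CD rats had 49.9 to 84.8 and LP rats 17.9 to 48.0. The log2 fold changes were -1.73 ± 0.49 (SE) for CCT 34 and -1.71 ± 0.52 (SE) for CCT 40, and without CD 5 the latter was -1.19. The edgeR adjusted p-values were 0.00504 and 0.00626.

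The proportions of the 3 CCT forms to each other overlapped between the groups. Of their summed raw counts, CCT 33 made up 48.0% ± 8.01 for CD (SD, n = 5) and 40.8% ± 12.3 for LP (SD, n = 4), CCT 34 23.5% ± 6.87 and 25.9% ± 2.16, and CCT 40 28.5% ± 8.30 and 33.3% ± 11.0. The ranges of the groups overlapped for each of these shares, which do not depend on the scaling of the libraries. LP 3 had the lowest share of CCT 33, 22.9% of 70 counts (exact Clopper-Pearson 95% interval 13.7 to 34.4), and the highest share of CCT 40, 48.6%. Such intervals cover counting error only. After the group means were subtracted, the log2 levels of CCT 33 and CCT 34 had a correlation of 0.85 over the 9 libraries, which is a description of nested sequences from the same libraries.

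The size of the CCT falls depended on the scaling. When the libraries were scaled by TMM over the table, the log2 fold changes were -1.32 for CCT 33, -0.94 for CCT 34 and -0.94 for CCT 40, and CCT 34 and CCT 40 no longer passed (edgeR adjusted p = 0.0705 and 0.103). In DESeq2, with size factors computed over the table, none of the 3 passed, at -1.21 (adjusted p = 0.0504), -0.83 (adjusted p = 0.104) and -0.86 (adjusted p = 0.143). The median log2 fold change of all tested tRFs was -1.49 in the main analysis, -0.69 with TMM and -0.72 in that DESeq2 run, and all 9 arginine tRFs had higher values under both. Both scalings take most tRFs to be unchanged, whereas every tRF of this table had been picked as changed. These 2 runs therefore cannot decide how large the CCT falls were.

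The tRNA-Arg-TCT fragments went in both directions. TCT 30, which ends in CCA and shares 18 bases with the CCT fragments, had raw counts of 17, 32, 21, 20 and 18 in CD and of 2, 7, 3 and 12 in LP. It fell in LP, CD rats averaging 24.0 ± 7.32 normalized read counts (SD, n = 5) and LP rats 4.61 ± 2.57 (SD, n = 4). The log2 fold change was -2.31 ± 0.45 (SE), with an edgeR adjusted p of 0.00178. No LP rat exceeded 6.98, whereas the lowest CD rat was at 17.5.

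TCT 20b, the shorter CCA-ended fragment, had raw counts of 4, 8, 9, 19 and 23 in CD and of 48, 34, 51 and 140 in LP. It rose in LP, with an average of 13.4 ± 8.11 (SD, n = 5) for CD and of 53.2 ± 22.1 (SD, n = 4) for LP on the normalized scale. The log2 fold change was 1.97 ± 0.49 (SE), with an edgeR adjusted p of 0.00371. CD 4 and CD 5 were the highest CD rats at 20.5 and 23.8, below the lowest LP rat, LP 2, at 33.9. LP 1 and LP 4 stood highest among the LP rats, at 65.8 and 77.9.

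Taken within each library, TCT 20b made up 34.8% ± 16.9 (SD, n = 5) of the summed counts of TCT 20b and TCT 30 for CD and 91.4% ± 5.85 (SD, n = 4) for LP. The lowest CD share was 19.0% in CD 1 (4 of 21 counts, exact Clopper-Pearson 95% interval 5.45 to 41.9) and the highest was 56.1% in CD 5 (23 of 41 counts, 39.7 to 71.5). In LP the shares ran from 82.9% in LP 2 (34 of 41 counts, 67.9 to 92.8) to 96.0% in LP 1 (48 of 50 counts, 86.3 to 99.5). This share is free of any scaling of the libraries. Its separation of the groups follows from the choice of one fragment that was higher and one that was lower.

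**Figure D2:**
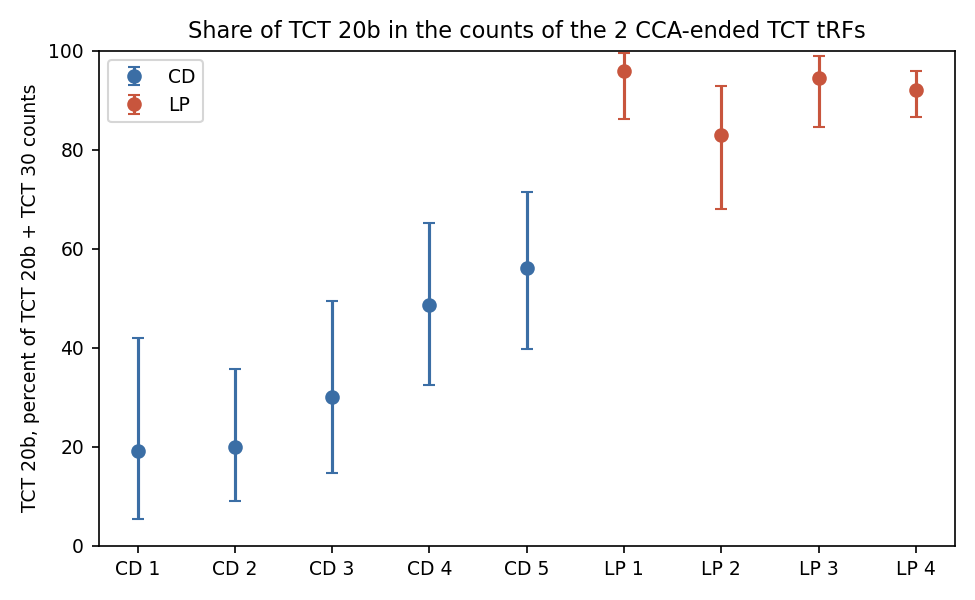
Percent of the raw counts of both CCA-ended TCT tRFs that were TCT 20b, in each CD (blue) and LP (red) library, with exact 95% binomial intervals as bars. The CD shares lie between 19.0% and 56.1% and the LP shares between 82.9% and 96.0%.

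TCT 20a was the TCT fragment without a CCA end, near TCT 20b in mean level in CD and the lowest of the 3 in LP. It had raw counts of 5, 14, 6, 12 and 30 in CD and of 2, 1, 5 and 7 in LP, and was left out by the filter. Normalized read counts were 14.5 ± 10.1 (SD, n = 5) and 2.77 ± 1.27 (SD, n = 4), with CD 5 the highest at 31.0 and the lowest CD rat at 4.99, above the 3.89 of LP 4. The fit without the filter gave a log2 fold change of -2.28 ± 0.55 (SE, edgeR adjusted p = 0.00370), which was -1.79 without CD 5. It was -1.68 with TMM and -1.60 (adjusted p = 0.0327) in DESeq2 with size factors computed over the table.

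TCG 40 was the longest arginine tRF with a CCA end and the other one that was higher in LP. Raw counts were 6, 4, 3, 5 and 5 in CD and 21, 21, 19 and 49 in LP. Its normalized read count rose 4.16-fold, CD rats averaging 5.41 ± 2.61 (SD, n = 5) and LP rats 22.5 ± 7.15 (SD, n = 4). The log2 fold change was 2.09 ± 0.41 (SE), with an edgeR adjusted p of 0.00178. The groups were apart, at 2.49 to 9.60 in CD and 13.1 to 28.8 in LP. CCT 40, of the same length and with the same 11-base run GGTTCGAGTCC, was lower. TCG 40 was the tRF listed in 2 rows with the same host name, and reads of near-identical tRNA gene copies cannot be told apart in it.

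CCG 20, which shares 13 bases with TCG 40, was lower in LP, at very few counts. Raw counts were 6, 6, 9, 8 and 7 in CD and 2, 1, 2 and 3 in LP, and its mean level was the lowest of all 192 tRFs. CD rats spanned 6.60 to 9.60 normalized read counts and LP rats 0.997 to 2.74. It was left out by the filter, and the fit without it gave a log2 fold change of -2.19 ± 0.33 (SE, edgeR adjusted p = 0.00155). With TMM it was -1.60, and in DESeq2 scaled over the table it was -1.52, close to the threshold at an adjusted p of 0.0476.

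ACG 24, the only fragment of the inosine-bearing tRNA, was carried by 2 CD rats. Raw counts were 24, 43, 5, 8 and 4 in CD and 0, 5, 2 and 6 in LP. CD 1 and CD 2 had 38.4 and 47.3 normalized read counts, whereas CD 3, CD 4 and CD 5 had 4.16, 8.63 and 4.13, so that LP 2 at 4.98 lay above CD 3 and CD 5. The count of 0 in LP 1 allows up to 3 counts, or 4.11 normalized read counts. ACG 24 was left out by the filter, and without it the log2 fold change was -2.92 ± 0.86 (SE, edgeR adjusted p = 0.00574), the least precise of the 9. It was -2.58 without CD 1 and -2.30 without CD 2, -2.21 with TMM and -2.09 in DESeq2 scaled over the table (adjusted p = 0.0133).

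**Figure D3:**
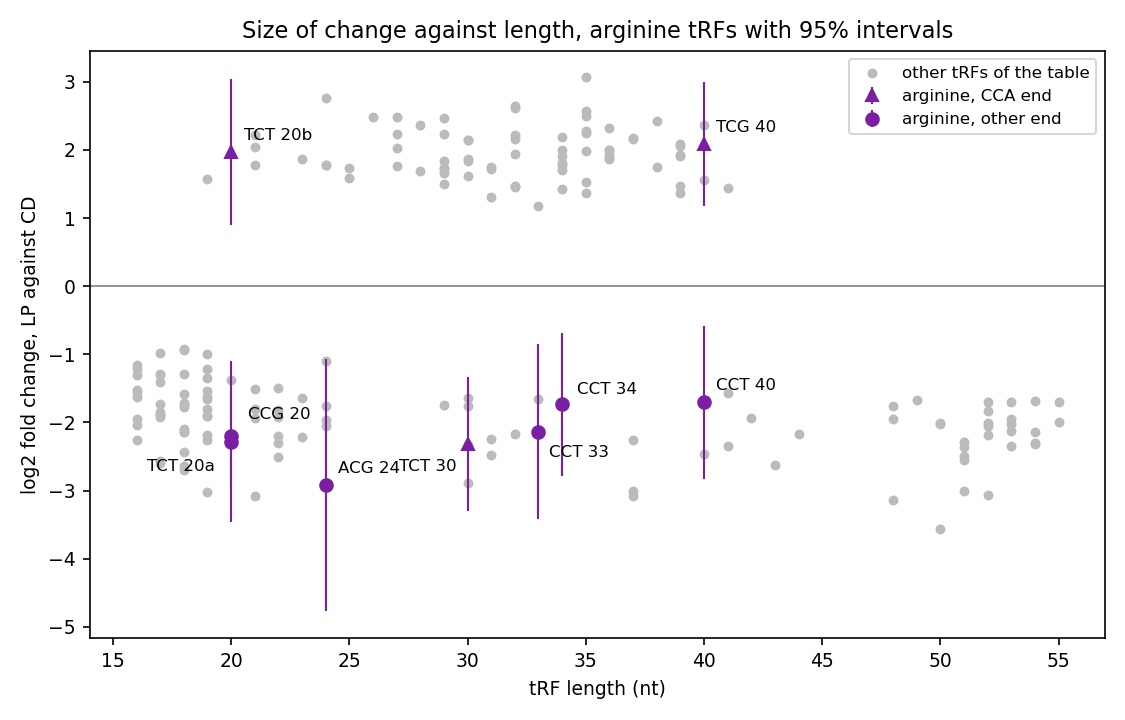
Log2 fold change of LP against CD (vertical axis, edgeR fit without a filter on low counts) against tRF length in nt for the 192 tRFs, with the arginine tRFs in purple (triangles for a CCA end, circles for other ends, bars for 95% intervals) and all others in grey. TCT 20b and TCG 40 lie above 0 and the other 7 arginine tRFs below it, and tRFs of 20 nt and of 40 nt occur on both sides.

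Length alone did not go with direction among these 9 tRFs, and the CCA end did so only in part. At 20 nt, TCT 20b was higher and TCT 20a and CCG 20 were lower, and at 40 nt, TCG 40 was higher and CCT 40 lower. Of the 3 CCA-ended fragments, TCT 20b and TCG 40 were higher and TCT 30 lower. All 6 without a CCA end were lower, whereas many tRFs of other hosts without one were higher, such as most fragments of Asp-GTC. The members are too few, and too closely nested, for a test of this.

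The share of the arginine tRFs in the table overlapped between the groups, whereas the part of it taken by the CCT fragments did not. The 9 tRFs together had 208 to 612 raw counts in CD libraries and 143 to 366 in LP libraries, which was 1.17% ± 0.41 (SD, n = 5) and 0.97% ± 0.32 (SD, n = 4) of the table's counts, with overlapping ranges. The CCT fragments made up 76.8% ± 8.33 of the arginine counts in CD, from 65.4% to 85.8%, and 49.1% ± 7.38 in LP, from 40.7% to 57.9%. TCT 20b and TCG 40 together made up 5.38% ± 3.54 in CD and 43.7% ± 6.33 in LP. CD 4 was the CD library with the largest such share, at 11.5%, and LP 2 the LP library with the smallest, at 38.5%. As for the TCT fragments, grouping the higher members together fixes the direction of this difference. The higher members also enlarge the LP total from which the CCT share is taken. The lower CCT share in LP therefore does not show a loss particular to the CCT fragments.

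**Figure D4:**
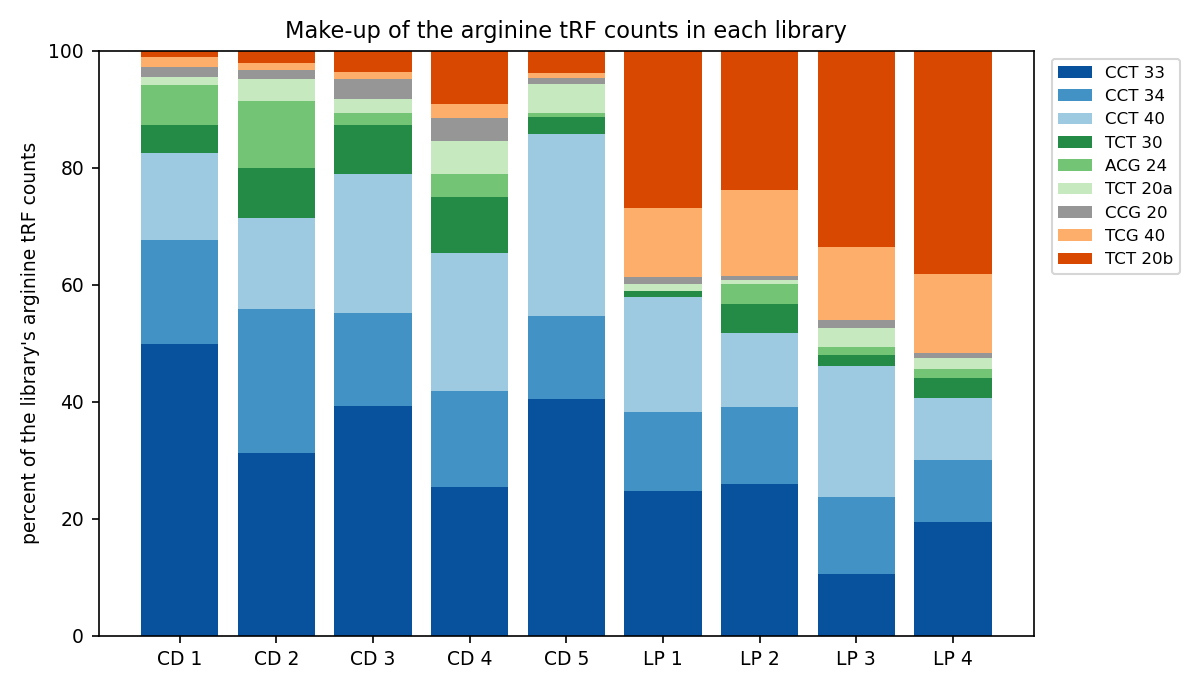
Percent of the summed arginine tRF counts of each library (stacked bars that add to 100) by tRF, for 5 CD and 4 LP libraries. The CCT forms in blue make up 65.4% to 85.8% in CD and 40.7% to 57.9% in LP, and TCG 40 and TCT 20b in orange take the upper part of the LP bars.

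Across the alternatives run, no arginine tRF changed direction, which follows largely from each having been picked as changed in these same rats. With TMM and with DESeq2 run on the size factors of the table itself, the rise of TCG 40 was larger, at 2.81 and 2.96 on the log2 scale, and so was that of TCT 20b, at 2.67 and 2.75. TCT 30 kept its call with both, at -1.63 (edgeR adjusted p = 0.00338) and -1.56 (DESeq2 adjusted p = 0.00760). Since both scalings take most tRFs of the table to be unchanged, the larger rises are no separate support.

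**Figure D5:**
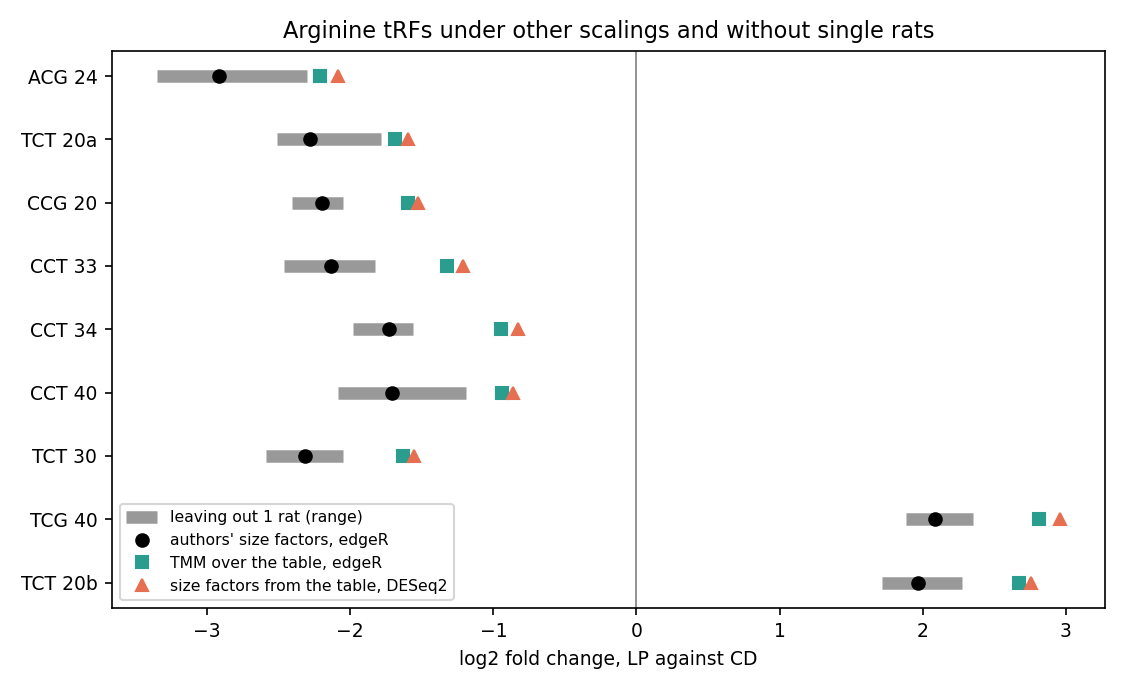
Log2 fold change of LP against CD for each arginine tRF in the edgeR fit with the authors' size factors (black circles, without the low-count filter for ACG 24, TCT 20a and CCG 20), with TMM over the table (green squares) and in DESeq2 with size factors from the table (orange triangles), and the range when each rat in turn was left out (grey bars). Both other scalings shift each of the 9 tRFs to the right, so that CCT 34 and CCT 40 come to -0.94 with TMM.

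For the fragment of each anticodon with the highest mean level over both groups, the tRFs of other hosts that varied most like it were found from log2 levels with the group means subtracted. These are the best of 183 tRFs over 9 libraries, so high values arise by the search, and all share the libraries and their scaling. For TCT this was TCT 20b, which led through the LP rats, since TCT 30 was higher in CD. Subtracting the group means removes the diet difference, so a tRF found in this way can differ between the diets in the other direction. ACG 24 went with fragments of the initiator methionine tRNA, iMet-CAT 17 (r = 0.92) and iMet-CAT 19 (r = 0.92), and with Leu-CAG 18b (r = 0.92). CCT 33 went with Gly-GCC 22 (r = 0.84), Asp-GTC 37c (r = 0.80) and Gly-GCC 35 (r = 0.79), the last of which was higher in LP. TCT 20b went with Ser-CGA/Ser-TGA 34 (r = 0.86), Asp-GTC 30a (r = 0.82) and Ala-AGC 39b (r = 0.80). For TCG 40 they were Asp-GTC 37a (r = 0.83), Asp-GTC 37c (r = 0.78) and His-GTG 31b (r = 0.74), of which both Asp-GTC fragments were lower in LP. For CCG 20, with at most 9 counts, they were 39-nt and 37-nt fragments of the proline tRNAs (r = 0.93 and 0.69) and Phe-GAA 30 (r = 0.87), all of which were higher in LP.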

How the data were processed

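Small RNA was sequenced from islets of 5 CD and 4 LP rats. RNA had been treated with a kit that opens blocked ends for adaptor ligation and removes base methylations. The authors matched reads to nuclear tRNAs predicted by tRNAscan-SE and to a database of mitochondrial ones, counted a tRF as present in a sample from 2 reads, and used DESeq2 for the comparison. Which aligner and build were used, and how molecular tags were handled, is not given in the sources used here. As deposited, the file holds raw read counts of the tRFs called as changed, and columns headed as normalized counts, which are the authors' log2 values after DESeq2's variance-stabilising transformation. Size factors, from 0.625 to 1.80, were recovered from those columns (residuals of at most 5.7e-05). The authors' own fold change, adjusted p-value and direction columns were not used.

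Rows (255) were collapsed to 192 sequences. Table totals were 12556 to 40166 counts, which are not library depths. edgeR 4.0.16 (R 4.3.3) tested LP against CD on counts scaled by the size factors, with a minimum count of 10 (181 tRFs tested) and Benjamini-Hochberg adjustment over the table. The code was tested on simulated data. DESeq2 1.42.0, TMM, no filter, a replicate block and leaving out each rat were alternatives. Every tRF of a tRNA-Arg- host was named. Likeness used log2(normalized read count + 1). Members and lists were chosen with earlier results of these data known.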

Additional observations from a re-analysis of the deposited data

Results flagged for a closer look

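Each of the 9 arginine tRFs was checked within CD and within LP, in 18 sets of values, for a rat whose log2 level stood far from all others of its group, and 0 were found, where chance gives about 0.9.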

How the results depend on the processing

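The 2 arginine tRFs that were higher in LP were called in every alternative run (2 in each). Both had been picked as changed in these same rats, and their groups did not overlap. The runs thus had little room to lose them. The count of lower arginine tRFs was 4 in the main analysis, 4 whenever a CD rat was left out and 5 whenever an LP rat was. With fewer LP rats the filter asks for fewer samples at its minimum, which admits TCT 20a through its CD rats. The count was 7 without the filter on low counts as well as in DESeq2 at the authors' size factors, since both admit ACG 24, CCG 20 and TCT 20a. With TMM over the table, which like the table's own size factors takes most tRFs to be unchanged, it was 2, CCT 33 and TCT 30. In DESeq2 with size factors computed over the table it was 4, ACG 24, CCG 20, TCT 20a and TCT 30, of which only TCT 30 is among the 4 of the main analysis. The runs of these 3 low-count tRFs without the filter under TMM, the block and leaving out each rat were chosen after seeing the data. Replicate numbers are shared between the groups, but the labels do not say that they mark pairs. Deviations of same-numbered rats had correlations of -0.40 to 0.08, and 0 of 4 LP rats correlated best with their own number. With the replicate block the counts were 2 higher and 4 lower. The low counts of CCG 20, ACG 24 and TCT 20a limit the precision of their sizes.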
